A study of Rattus norvegicus with 10 samples.

Results

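The 9 genes of arginine, creatine and polyamine synthesis were examined in renal cortex from PCK rats of both sexes, namely *Ass1*, *Asl*, *Oat*, *Gatm*, *Gamt*, *Odc1*, *Amd1*, *Srm* and *Sat1*. They were taken by symbol from the deposited table, where 9 of its 32545 genes matched, each on a single row, and all 9 passed the filter on low values. The PCK rat carries a mutation in *Pkhd1*, the gene altered in autosomal recessive polycystic kidney disease, and develops cysts in kidney and liver. RNA-seq was available for 5 males and 5 females, with 1 library per rat, and every rat of both groups carried the mutation, so the comparison is between the sexes within the disease and there was no unaffected strain beside them. The strain was PCK/CrljCrl-Pkhd1pck/Crl, the rats came from 2 litters of different parents, and the tissue was cortex frozen at collection. They were 10 to 12 weeks old by the methods and 12 to 14 weeks old by the labels, where the tissue is called kidney. Which rat belonged to which litter was not used here, so litter and library cannot be told apart.

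The proximal tubule of the kidney is the body's main source of circulating arginine, which it builds from citrulline that the gut releases. Arginine then feeds several routes: it can be split into urea and ornithine, *Gatm* uses it with glycine to start creatine, and nitric oxide synthases turn it into nitric oxide. Ornithine can be broken down towards glutamate and proline or decarboxylated to putrescine, from which the polyamines spermidine and spermine are built, small positively charged molecules that cells need for translation and growth. Along the rat tubule these enzymes are not evenly spread, since arginine synthesis is a feature of the convoluted part of the proximal tubule, whereas *Oat* and *Odc1* are known from its straight part. *Odc1* is a well known target of androgens in mouse kidney, and *Oat* of oestrogens in rat kidney. No hormone was measured here.

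Values are FPKM, that is, fragments scaled by gene length and by a factor per library, so levels of different genes can be compared per unit length. That factor was not the number of reads on genes. The median ratio of each library to the mean library was already 1.01 in all 10. The libraries held 13912569 to 20285911 reads on genes, and every FPKM went back to a whole number of reads. Mitochondrial reads took 26.8% of female 2 and 14.3% to 19.1% of the other 9 libraries. The labelled sex matched the Y-linked gene *Eif2s3y* in all 10 libraries, with 39.4 ± 5.95 FPKM in males against 0.126 ± 0.127 FPKM in females (SD, n = 5 each). The 8 markers of the proximal tubule summed to 4745 to 8163 FPKM in males against 5069 to 9349 FPKM in females, the inner medulla list summed to 7.94 FPKM in female 2 and 2.15 to 3.73 FPKM in the other 9 libraries, and *Alb*, *Apoa1* and *Actn3* of liver and muscle were under 0.5 FPKM in all libraries. In bulk tissue fewer cells of a type and less RNA per cell cannot be told apart.

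None of the 9 genes differed between the sexes after adjustment over all genes. Differences were tested with limma on log2(FPKM + 0.1), which understates the change of low genes, and a gene was called where its p, adjusted by Benjamini-Hochberg over the 17631 genes tested, did not exceed 0.05. Of these genes 424 were called, which is 2.40%, with 223 higher in females (1.26%) and 201 lower (1.14%), so 0 of 9 members lies close to that background. At an unadjusted p under 0.05, 4 members passed (*Oat*, *Gamt*, *Amd1* and *Sat1*) beside 2775 of all genes (15.7%). The estimate was higher in females for 4 members and lower for 5. The median size of the log2 difference was 0.40 over the members and 0.17 over all genes, and the median width of its 95% interval was above the 0.75 of all genes. The ranges of males and females were separate for 0 of 9 members and for 899 of all genes (5.10%), so the members are near that background too. Limma-voom on the recovered reads called 508 genes and again 0 members. Female 2, the library with the most mitochondrial reads and the highest inner medulla sum, decided this count: without it 550 of 17577 genes were called (3.13%), among them 2 members, *Oat* (log2 difference 1.04, adjusted p = 0.0436) and *Amd1* (0.32, adjusted p = 0.0359, both limma). On 1 of its 2 rows the inner medulla marker *Slc14a2* had 2.24 FPKM in female 2 and at most 0.0665 FPKM elsewhere, and the part of tissue makeup or mitochondrial reads in these calls was not tested.

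**Figure D1:**
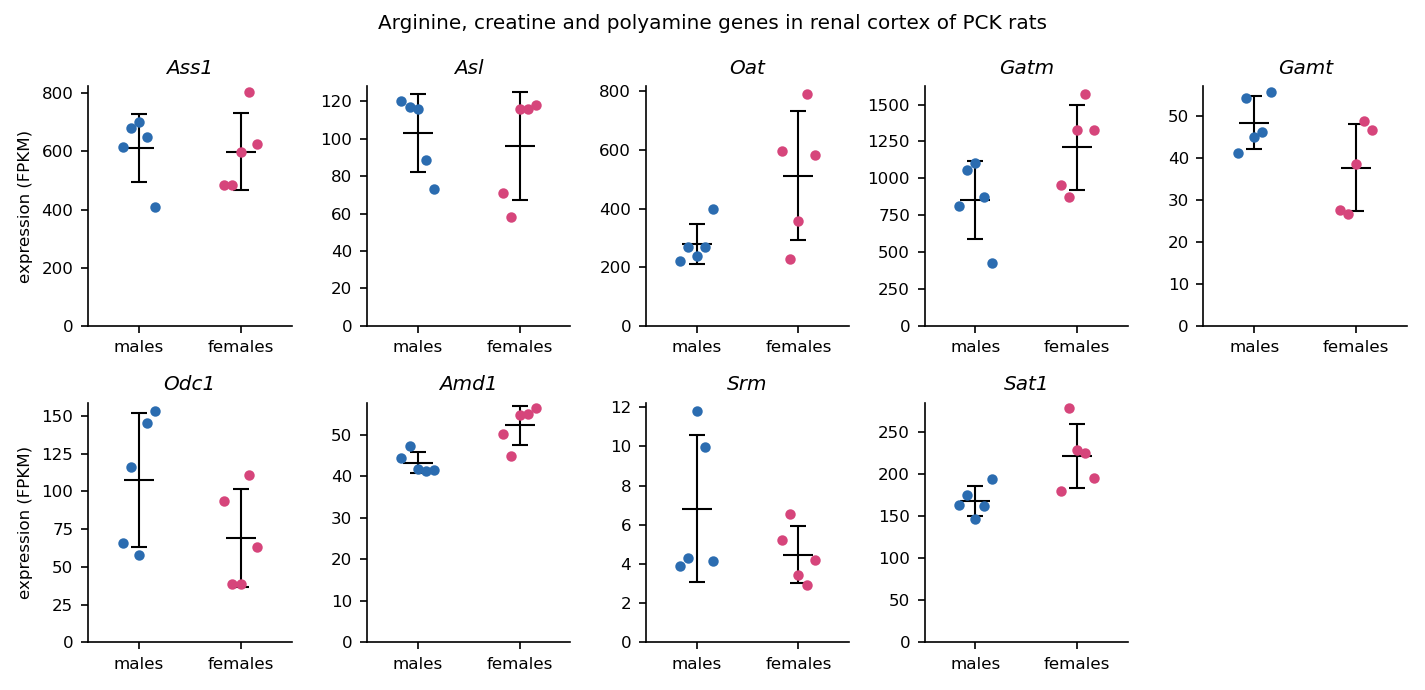
Expression of the 9 genes in FPKM, with 1 point per rat (males blue, females pink), the mean as a line and the SD as bars, each axis starting at 0. Points of both sexes overlap for every gene, and for *Amd1* and *Sat1* 4 of 5 females lie above all males.

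By mean level per length the order was *Gatm* (1032 ± 323 FPKM, SD over all 10 libraries), *Ass1* (605 ± 118), *Oat* (395 ± 196), *Sat1* (195 ± 39.8), *Asl* (99.4 ± 24.1), *Odc1* (88.2 ± 41.7), *Amd1* (47.8 ± 5.92), *Gamt* (43.0 ± 9.86) and *Srm* (5.65 ± 2.96). *Gatm* ranked 42nd of all genes by mean FPKM and *Ass1* 91st, whereas *Srm* ranked 8891st. Between neighbours in this order the ranges overlapped except for *Sat1* and *Asl* and for *Gamt* and *Srm*, although *Gatm* stood above *Ass1* within each of the 10 libraries. By sex, *Odc1* (107 FPKM) stood above *Asl* (103) and *Gamt* (48.4) above *Amd1* (43.3) in the male means, while in the female means *Asl* (95.9) stood above *Odc1* (69.1) and *Amd1* (52.2) above *Gamt* (37.6). The creatine pathway was thus uneven at the level of mRNA per length, its first enzyme being near the top of the list and its second, *Gamt*, near the bottom.

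The promoters of 6 members are given first, for the pairs whose ratio differed between the sexes (*Oat* with *Odc1* and *Gatm* with *Gamt*) and for the polyamine genes *Amd1* and *Sat1*. Each is the strand of the gene, 5′ to 3′, from RefSeq on build GRCr8, 150 bases that end just before the annotated start. Capitals mark TATAA (the TATA box), CCAAT (the CCAAT box), GGGCGG (the GC box) and TGACG (the core of the cyclic AMP response element) on either strand.
Oat, chr1:196797755-196797904, minus strand: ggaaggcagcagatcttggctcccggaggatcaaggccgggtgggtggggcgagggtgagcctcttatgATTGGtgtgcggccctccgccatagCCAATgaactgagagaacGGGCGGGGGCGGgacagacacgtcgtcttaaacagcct
Odc1, chr6:46058515-46058664, plus strand: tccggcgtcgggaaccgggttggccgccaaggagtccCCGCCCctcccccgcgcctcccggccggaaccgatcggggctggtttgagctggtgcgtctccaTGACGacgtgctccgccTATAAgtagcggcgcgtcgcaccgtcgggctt
Gatm, chr3:130129094-130129243, minus strand: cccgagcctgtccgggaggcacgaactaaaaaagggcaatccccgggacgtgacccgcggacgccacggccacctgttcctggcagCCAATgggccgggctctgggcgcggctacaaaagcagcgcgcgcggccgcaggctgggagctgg
Gamt, chr7:10099134-10099283, plus strand: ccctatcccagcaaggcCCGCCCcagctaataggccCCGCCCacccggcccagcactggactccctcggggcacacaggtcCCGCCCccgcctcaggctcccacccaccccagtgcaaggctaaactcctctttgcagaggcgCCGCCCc
Amd1, chr20:45265983-45266132, minus strand: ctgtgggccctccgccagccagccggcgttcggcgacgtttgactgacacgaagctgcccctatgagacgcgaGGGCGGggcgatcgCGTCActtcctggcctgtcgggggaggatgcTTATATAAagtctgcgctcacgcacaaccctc
Sat1, chrX:44007939-44008088, plus strand: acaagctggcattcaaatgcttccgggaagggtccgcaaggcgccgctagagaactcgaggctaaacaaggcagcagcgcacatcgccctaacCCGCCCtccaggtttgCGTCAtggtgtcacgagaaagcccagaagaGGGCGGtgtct

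The table of promoters matched all 9 members. In these 150 bases TATAA stood in 3 of 9 (*Ass1*, *Odc1* and *Amd1*) against 15.2% of all 33469 promoters, and in *Amd1* its matches on the 2 strands overlap. TGACG stood in 3 of 9 (*Odc1*, *Amd1* and *Sat1*) against 13.4% of all promoters, and not in *Srm*, the other polyamine gene. GGGCGG stood in 6 of 9 against 26.0%, with 4 copies in *Gamt*. The members' windows held 52.7% (*Ass1*) to 72.7% (*Srm*) G and C, against a median of 52.7% over all promoters. The part of base composition in the share of GGGCGG was not tested. CCAAT stood in *Oat*, *Gatm* and *Srm* against 23.5%, and CACGTG, the E-box, in 0 of 9 against 3.74%. Over 250 bases the full palindrome of an oestrogen response element (GGTCA and TGACC with 3 free bases between them) was in 0 of 9 members and in 0.0239% of all promoters, and that of an androgen response element (AGAACA and TGTTCT, also 3 bases apart) in 0 of 9 and 0.0120%. A match is a description of letters, and the absence of one says only that these letters are not in this window.

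Of the 2 enzymes that make arginine, *Ass1* (argininosuccinate synthase, which joins citrulline to aspartate) lies on chromosome 3 of Rnor_6.0 from 10327414 to 10371240. It was expressed at 616, 679, 702, 650.2 and 409 FPKM in males 1 to 5 and at 483, 484, 598, 805 and 626 FPKM in females 1 to 5. Male 5 was the lowest library and female 4 the highest, and the other 8 libraries fell between them with the sexes mixed. The means were 611 ± 118 and 599 ± 132 FPKM (SD, n = 5), and the log2 difference, here and below females over males, was -0.03 (SE 0.19, 95% interval -0.44 to 0.38, limma adjusted p = 0.964). That interval spans 0.736 to 1.31 times the male level.

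*Asl* (argininosuccinate lyase, which releases arginine, chromosome 12, 30165694 to 30178341) had 119.8, 117, 116, 88.5 and 73.3 FPKM in the males and 71.2, 58.1, 116, 116 and 118 FPKM in the females. Males 1 to 3 and 3 females shared a narrow band at the top, and the low libraries came from both sexes, with females 2 and 1 lowest. Its log2 difference was -0.14 (SE 0.23, interval -0.63 to 0.36, adjusted p = 0.830). The gene overlaps *Crcp* on the opposite strand, and the labels describe both a stranded and an unstranded library type without saying which was used, so reads of the overlap could not be assigned.

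*Oat* (ornithine aminotransferase, which passes ornithine on towards glutamate and proline, chromosome 1, 204562289 to 204582070) had the largest mean difference of the 9 genes on the log2 scale. Males 1 to 5 had 223, 268, 237, 268 and 397 FPKM, whereas females 1 to 5 had 598, 229, 359, 789 and 583 FPKM. Females 1, 4 and 5 exceeded every male, female 3 lay below male 5, and female 2 sat among the low males. The means of 279 ± 69.1 and 511 ± 219 FPKM (SD, n = 5) gave a female level 1.84 times that of males and a log2 difference of 0.78 (SE 0.31, interval 0.11 to 1.45). This did not pass adjustment over all genes (limma adjusted p = 0.239), and the exact permutation test on the means, two-sided, gave p = 0.0794. The spread among females was wide, with a coefficient of variation of 42.9% against a median of 16.2% over genes of at least 1 FPKM. Without female 2 the call changed, as given above.

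**Figure D2:**
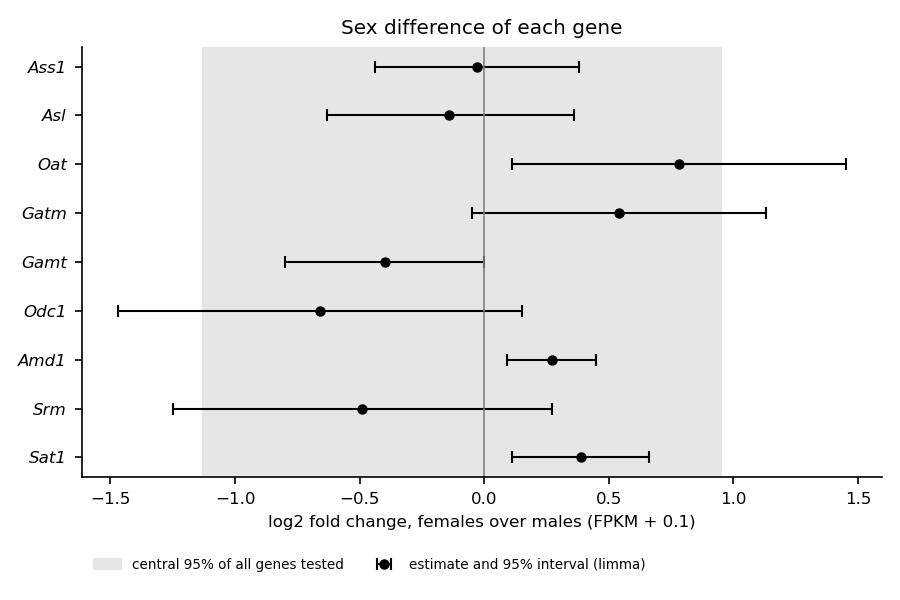
Log2 fold change of females over males for each gene on log2(FPKM + 0.1), with the limma estimate as a point and its 95% interval as a bar, and the central 95% of all genes tested as a grey band from -1.13 to 0.95. The 9 estimates lie inside the band. The intervals are not adjusted, and those of *Amd1* (0.09 to 0.45, the narrowest), *Oat* (0.11 to 1.45) and *Sat1* (0.11 to 0.66) are clear of 0. That of *Gamt* ends at 0.00.

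Creatine synthesis starts with *Gatm*, the mitochondrial enzyme that moves the amidino group of arginine to glycine and leaves ornithine (chromosome 3, 114711562 to 114728410). It was present at 811, 1055, 1101, 870.4 and 428 FPKM in males against at 957, 874, 1326, 1569 and 1327 FPKM in females. Females 3, 4 and 5 exceeded all males, the other 2 lay within the male range, and male 5 stood below all other libraries. With means of 853 ± 267 and 1211 ± 288 FPKM (SD, n = 5), the log2 difference was 0.54 (SE 0.27, interval -0.05 to 1.13, limma adjusted p = 0.360). Without male 5 it was 0.31. The exact permutation test gave p = 0.0794, two-sided.

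*Gamt*, the methyltransferase that completes creatine (chromosome 7, 12314848 to 12317998), was at 41.1, 54.1, 44.9, 46.1 and 55.6 FPKM in males against 27.5, 26.6, 38.6, 48.8 and 46.6 FPKM in females. Females 1, 2 and 3 were below every male, while females 4 and 5 lay in the middle of the males. Its log2 difference of -0.40 (SE 0.18, interval -0.80 to 0.00) did not pass the adjustment (adjusted p = 0.316, and exact permutation p = 0.111, two-sided). The estimates for the 2 steps of creatine synthesis thus had opposite signs.

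*Odc1* (ornithine decarboxylase, the first and tightly controlled step of polyamine synthesis, chromosome 6, 42852683 to 42859927) varied most among the well-expressed members. Levels ran at 65.8, 116, 57.6, 145 and 153 FPKM in the males and at 93.4, 38.4, 39.0, 111 and 63.1 FPKM in the females. Every female was below the male median, and females 2 and 3 were below all males, yet males 1 and 3 had values among those of the females. The coefficient of variation was 41.0% in males and 47.3% in females, against medians of 13.0% and 16.2% over genes of at least 1 FPKM. The log2 difference was -0.66 (SE 0.37, interval -1.47 to 0.15, adjusted p = 0.432), so that the data allow anything from 0.360 to 1.11 times the male level. The small nucleolar RNA *SNORA42* is annotated within *Odc1* on the same strand, as *SNORA26* is within *Ass1* on the other, and reads of such a pair could not be separated here.

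*Amd1* makes decarboxylated S-adenosylmethionine, the donor of the groups that turn putrescine into spermidine and spermine, and it lies on chromosome 20 from 45384000 to 45399694. In contrast to *Odc1* it was the steadiest member, at 44.5, 47.2, 41.8, 41.2 and 41.6 FPKM in males against 50.1, 45.0, 54.8, 55.0 and 56.4 FPKM in females. In all, 4 of 5 females exceeded every male, and female 2 lay between males 1 and 2. The coefficient of variation was 5.90% in males and 9.03% in females. Means of 43.3 ± 2.55 and 52.2 ± 4.72 FPKM (SD, n = 5) gave a log2 difference of 0.27 (SE 0.08, interval 0.09 to 0.45), that is, a fold of 1.20. By itself the gene passed the exact permutation test (p = 0.0159, two-sided, before any adjustment), but not the adjustment over all genes (limma adjusted p = 0.126).

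*Srm* (spermidine synthase, chromosome 5, 165405168 to 165408320) was the lowest member, with 65 to 256 reads per library. It measured 3.91, 4.33, 11.8, 9.99 and 4.13 FPKM in males against 5.22, 6.56, 3.43, 2.95 and 4.19 FPKM in females. Males 3 and 4 stood apart from the other 8 libraries, which lay between 2.95 and 6.56 FPKM. The log2 difference was -0.49 (SE 0.34, interval -1.25 to 0.27, adjusted p = 0.541), and it was -0.26 without male 3, -0.31 without male 4 and -0.65 at its lowest, without male 1. The table also lists *LOC100912604*, described there as spermidine synthase-like (chromosome 3, 14588870 to 14591974), a row looked up after the values were seen. It had 122 reads in female 3 and 330 in female 4, the libraries with the fewest *Srm* reads of all (72 and 65), and 5 to 16 reads in the other 8 libraries. How alike the 2 sequences are was not computed, so the split of reads between them is uncertain. With both rows summed the estimate changed sign to 0.29 (SE 0.40, adjusted p = 0.785), and no direction can be given for *Srm*.

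*Sat1*, on chromosome X from 43625169 to 43629765, acetylates spermidine and spermine and so starts their export and breakdown. Its values were 164, 175, 147, 162 and 195 FPKM in males against 180.0, 279, 229, 226 and 196 FPKM in females. Of 5 females, 4 were above all males, although female 5 only just cleared male 5, and female 1 was inside the male range. Female 2, the lowest library for *Asl*, *Gamt* and *Odc1*, was here the highest. The means were 169 ± 18.1 and 222 ± 38.1 FPKM (SD, n = 5), with a log2 difference of 0.39 (SE 0.13, interval 0.11 to 0.66). As for *Amd1*, the exact permutation test of this gene alone gave p = 0.0159 (two-sided, before any adjustment), while the limma adjusted p was 0.157.

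**Figure D3:**
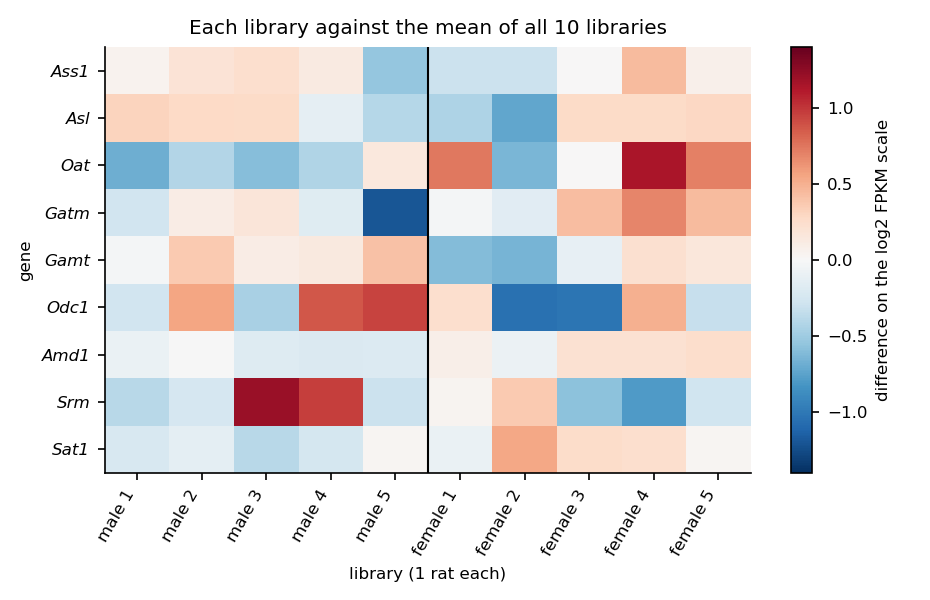
Difference of each library from the mean of all 10 libraries on the log2 FPKM scale, with genes as rows, rats as columns and a line between the sexes (red higher, blue lower). Male 5 is low for *Gatm* and high for *Odc1*, female 4 is high for *Oat* and *Gatm*, and female 2 is low for *Odc1* and *Asl*.

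Ratios of members within a library do not depend on how that library was scaled, and 4 are given. They had exact permutation tests on the log2 ratio, two-sided, with Benjamini-Hochberg adjustment over the 6 ratios of the design. The pairs were chosen with earlier results of these data known, a choice that the adjustment does not cover. *Oat* over *Odc1*, the enzymes that draw ornithine towards glutamate and towards polyamines, was 3.39, 2.32, 4.11, 1.85 and 2.60 in males and 6.41, 5.96, 9.20, 7.07 and 9.24 in females. All females lay above all males, although neither gene alone separated the sexes. The mean log2 ratio was 1.46 ± 0.45 in males and 2.90 ± 0.29 in females (SD, n = 5), a difference of 1.44 (exact permutation p = 0.00794, the smallest that 5 against 5 libraries allow, and 0.0238 adjusted).

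*Gatm* over *Gamt* also separated the sexes. It was 19.7, 19.5, 24.5, 18.9 and 7.69 in males and 34.8, 32.9, 34.4, 32.2 and 28.5 in females. The females were tightly grouped, with a mean log2 ratio of 5.02 ± 0.12, whereas male 5 was far below the other males, whose group had 4.08 ± 0.65 (SD, n = 5). The difference was 0.94 on the log2 scale (exact permutation p = 0.00794, adjusted p = 0.0238). Without male 5 it was 0.66. With any single library left out the log2 difference ran from 0.66 to 1.08 for *Gatm* over *Gamt* and from 1.30 to 1.59 for *Oat* over *Odc1*. Groups that do not overlap stay separate in such fits, so their p says nothing more.

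The other 2 ratios did not pass. *Odc1* over *Sat1*, synthesis against breakdown of polyamines, was 0.393 to 0.894 in males and 0.137 to 0.519 in females, a log2 difference of -1.05 (exact permutation p = 0.0635, adjusted p = 0.127). *Amd1* over *Srm* differed by 0.77 (exact p = 0.151, adjusted p = 0.226) and rests on the uncertain reads of *Srm*.

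**Figure D4:**
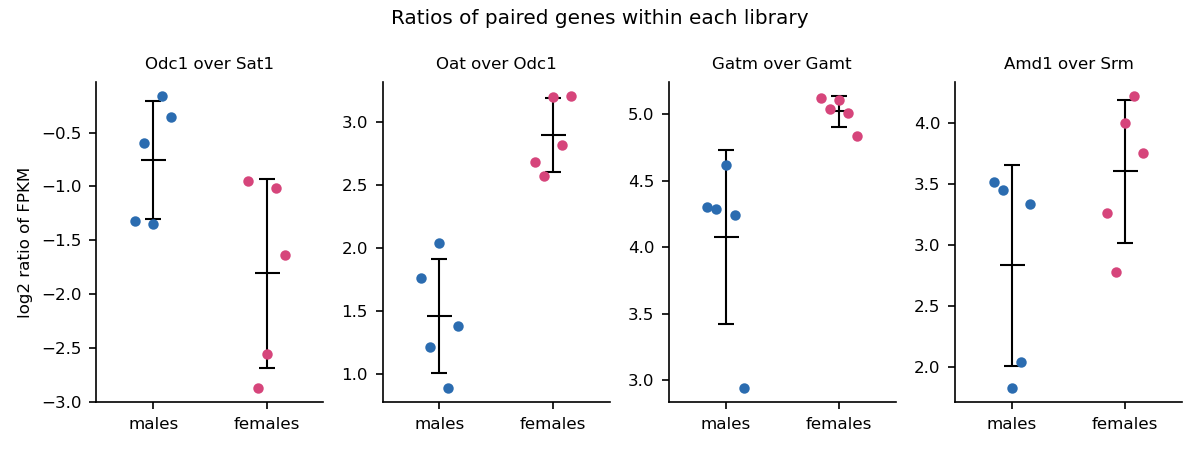
Log2 ratio of FPKM of 2 genes within each library for 4 pairs, with 1 point per rat (males blue, females pink), the mean as a line and the SD as bars; each panel has its own axis, which does not start at 0. Males and females are separate for *Oat* over *Odc1* and for *Gatm* over *Gamt* and overlap in the other 2 panels.

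Markers of tubule segments varied between the libraries together with several members. The 4 markers of the proximal convoluted tubule, none of them called, summed to 450.2, 522, 541, 414 and 183 FPKM in males against 351, 230.1, 539, 659 and 456 FPKM in females. Male 5 had the lowest sum and female 4 the highest, as was the case for *Ass1* and *Gatm*. *Gatm* over this sum was 1.80 to 2.34 in males and 2.38 to 3.80 in females, without overlap, whereas the same quotient overlapped for *Ass1* (1.30 to 2.23 and 1.11 to 2.10) and *Asl* (0.214 to 0.400 and 0.176 to 0.259). The 3 markers of the proximal straight tubule summed to 211, 472, 169.9, 638 and 594 FPKM in males against 887, 436, 429.7, 1022 and 1106 FPKM in females, most of it from *Slc7a13*. Of these, *Slc5a1* was called higher in females (12.9 ± 1.79 and 21.9 ± 5.68 FPKM, log2 difference 0.73, limma adjusted p = 0.0353), and a 4th listed marker, *Slc22a24*, was not analysed here.

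*Odc1* over the straight tubule sum was 0.311, 0.246, 0.339, 0.227 and 0.257 in males and 0.105, 0.0879, 0.0907, 0.109 and 0.0570 in females. Relative to these markers the sexes did not overlap for *Odc1*, although its FPKM overlapped. For *Oat* the quotient was 0.420 to 1.39 in males and 0.524 to 0.835 in females. These quotients were formed after the values were seen and carry no test, and the part of segment makeup in the sex differences was not tested. Beside them, *Cubn* was called higher in females among the 8 general proximal markers. Of the other lists, the 5 fibroblast and smooth muscle markers summed to 256 to 340.3 FPKM in males against 82.5 to 275 FPKM in females with overlap and *Col3a1* alone called lower, and the 5 injury markers to 3279 to 7180.2 and 902 to 5572 FPKM, also with overlap, with none of 4 tested called and *Krt20* under 0.5 FPKM throughout. The 4 intercalated cell markers summed to 104 to 171 FPKM in males against 176 to 276 FPKM in females, with none called. The highest injury sum was in male 5 and the lowest in female 4, the same libraries that marked the ends for *Ass1* and *Gatm*. Most of that sum came from *Spp1* (7007 FPKM in male 5 and 888 in female 4). *Lcn2* and *Vcam1* were also highest in male 5, but *Havcr1* in male 4 (105 FPKM against 68.1 in male 5). *Krt20* apart, each injury marker was lowest in female 4.

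Of 51 further genes of these pathways, 49 matched the table, 47 passed the filter and 2 were called (1 higher and 1 lower in females), against 2.40% of all genes. Neither passed the study's second threshold, a log2 difference of at least 1 in size, which 232 of all genes passed beside the first (1.32%). *Nos2* and *Aldh4a1* were not analysed here. At an unadjusted p under 0.05, 8 of 47 passed beside 15.7% of all genes, and the ranges were separate for 3 of 47 beside 5.10%, both near the background. The median log2 difference was 0.05, close to the -0.01 of all genes.

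None of the 8 genes of the urea cycle and arginine use was called. *Ddah1*, which clears methylated arginines that block nitric oxide synthase, was the highest of them at 216 ± 34.8 FPKM in males against 223 ± 25.8 FPKM in females (SD, n = 5), and the urea cycle enzyme *Otc* stayed low, at 0.301 ± 0.101 and 0.232 ± 0.167 FPKM.

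In creatine use, 1 of 4 tested genes was called. *Ckmt1*, a mitochondrial creatine kinase that the table names *Ckmt1b*, was at 49.0, 38.1, 37.7, 42.2 and 48.0 FPKM in males against 56.3, 76.4, 64.1, 65.0 and 55.9 FPKM in females. Every female exceeded every male, and the log2 difference was 0.56 (SE 0.11, interval 0.32 to 0.81, adjusted p = 0.0236 by limma). The gene overlaps *Ppip5k1* on the other strand, so reads of the overlap could not be assigned. The call was lost with the replicate number as a block (adjusted p = 0.133), with quantile normalization (0.0659), with scaling to nuclear reads (0.0600) and in 5 of the 10 fits that left out 1 library (all limma). Cytosolic *Ckb*, the most abundant of the group, was at 208 ± 16.4 and 182 ± 12.5 FPKM (log2 difference -0.19, adjusted p = 0.317).

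Among the regulators of *Odc1*, 1 of 5 was called. *Azin2*, an antizyme inhibitor, which protects ornithine decarboxylase from its antizymes, was lower in females, with 3.81, 3.17, 3.43, 3.79 and 2.74 FPKM in males against 2.21, 1.93, 2.58, 2.18 and 1.99 FPKM in females. The groups were separate by a narrow gap between male 5 and female 3. Its log2 difference was -0.61 (SE 0.13, interval -0.90 to -0.33, adjusted p = 0.0337 by limma), and the call was lost with no filter on low values (adjusted p = 0.0526), quantile normalization (0.0936) and the replicate block (0.0848), and in 8 of the 10 fits that left out 1 library. *Oaz1*, the abundant antizyme that sends ornithine decarboxylase to the proteasome, was at 511 ± 89.3 and 529 ± 186 FPKM (log2 difference -0.02, adjusted p = 0.983).

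In the other 4 groups no gene was called either. Of the 6 genes that link ornithine, proline and glutamate, the highest was *Prodh2*, a dehydrogenase of hydroxyproline, at 50.5 ± 11.8 and 67.1 ± 25.8 FPKM (adjusted p = 0.616). Among 8 tested genes of polyamine synthesis and breakdown, *Mat2a*, which makes S-adenosylmethionine, led with 127 ± 22.7 and 131 ± 32.5 FPKM (adjusted p = 0.965). *Eif5a*, the translation factor that carries hypusine made from spermidine, was at 359 ± 24.8 and 373 ± 26.1 FPKM (adjusted p = 0.832), the highest of its 4 genes. Its relative *Eif5a2* had ranges separate by a narrow gap, at 2.84 ± 0.359 and 2.27 ± 0.188 FPKM (SD, n = 5), without passing the adjustment (log2 difference -0.31, adjusted p = 0.233). The 12 carriers of arginine, ornithine and polyamines were led by *Slc3a1*, the heavy subunit of the cystine and dibasic amino acid carrier, at 789 ± 189 and 855 ± 221 FPKM (adjusted p = 0.866, all by limma).

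**Figure D5:**
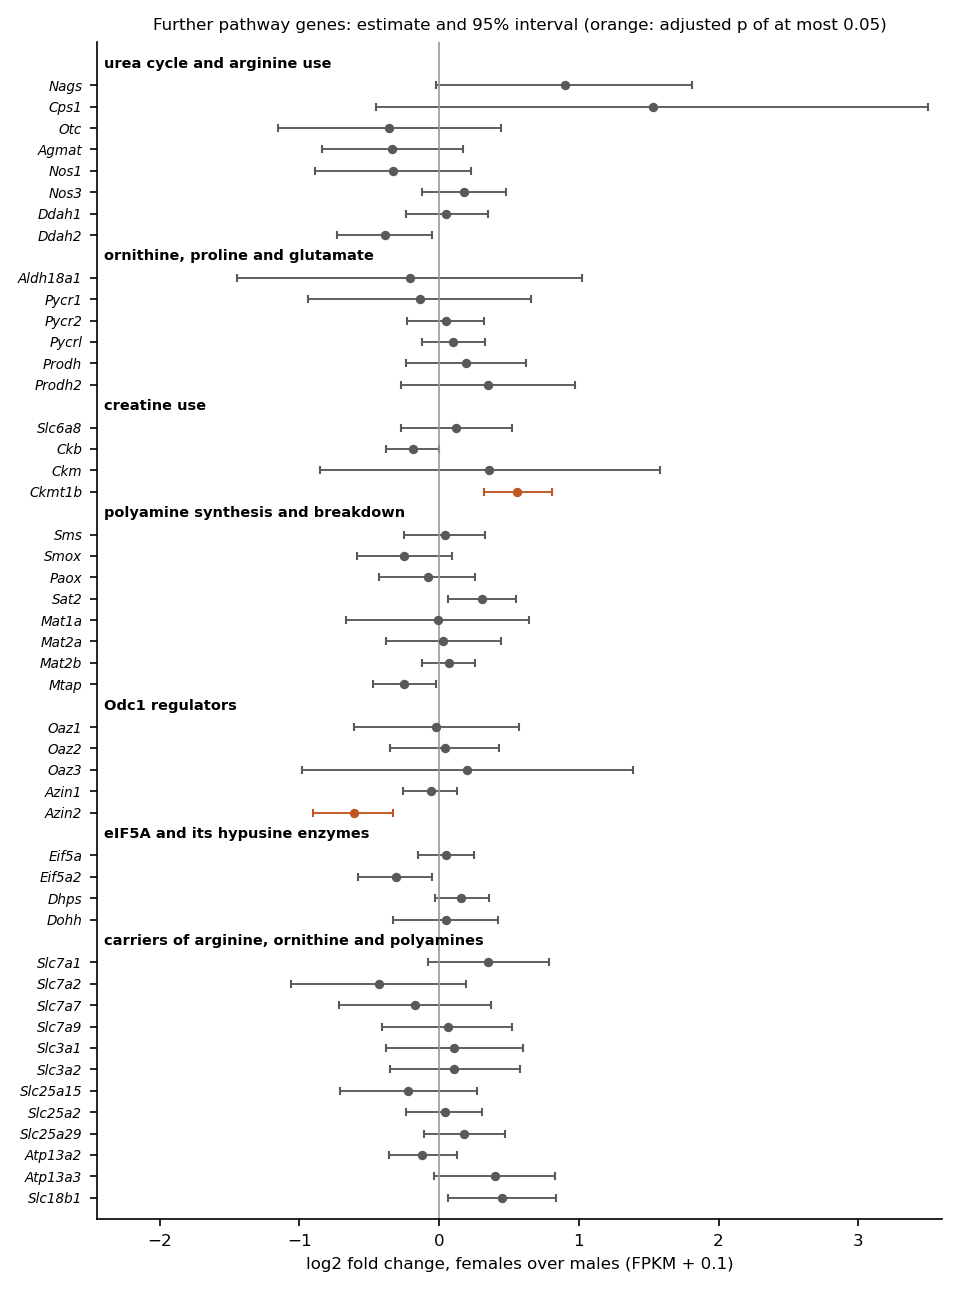
Log2 fold change of females over males on log2(FPKM + 0.1) for the 47 tested further genes of these pathways, grouped by role, with the limma estimate as a point and its 95% interval as a bar (orange: adjusted p of at most 0.05). *Ckmt1b* (0.56) and *Azin2* (-0.61) are marked, and most other intervals include 0.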

How the data were processed

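RNA from renal cortex was analysed for 10 PCK rats, 5 males and 5 females by the sex in the sample labels. The authors deposited FPKM for 32545 genes, computed by their provider after mapping to Rnor_6.0 with HISAT2. The submitters' processing notes list HISAT2 2.0.5, StringTie 1.3.3b and featureCounts 1.5.0-p3, and the strand setting is not given in the sources used here. Dividing by what 1 read is worth at each gene's length gave whole reads (tolerance 0.01) for 100% of values, 13912569 to 20285911 per library. Depth was therefore known, and the number of reads limits the low genes.

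The limma test (lmFit and eBayes with trend) was run on log2(FPKM + 0.1) for the 17631 genes whose mean reached 0.1 FPKM, with Benjamini-Hochberg adjustment. Because FPKM are not counts, a count model served only as an alternative (limma-voom). Single genes and ratios had exact permutation tests, two-sided. Alternatives were other pseudocounts, filters, scalings and eBayes options, the replicate number as a block, and leaving out each library. *Srm* summed with *LOC100912604* was added after seeing the data. The exact permutation test and the main limma fit were tested on simulated data.

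The 9 members, the ratios and the lists of further genes and markers were chosen with earlier results of these data known. Named are all members, each further pathway gene that was called, the most expressed gene of each group of that list, and markers that touch a result. *Otc*, *Eif5a2*, *Slc7a13*, *Slc14a2* and *LOC100912604* were named after their values were seen. Promoters came from RefSeq (GRCr8) and were matched by symbol. R 4.3.3, limma 3.58.1, Python 3.11.15, numpy 2.4.6, pandas 2.3.3, scipy 1.17.1 and matplotlib 3.10.9 were used. A member, a further gene of the pathway list and 2 of the 6 ratios are not reported here.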

Additional observations from a re-analysis of the deposited data

Results flagged for a closer look

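In 44 groups of 5 libraries, the gap between an extreme library and its nearest neighbour was set against Dixon's critical value, which chance passes in about 1 of 20 groups. In all, 2 groups passed, both through male 5, which is about the number that chance alone gives. *Oat* was 397 FPKM in male 5 and 223 to 268 FPKM in the other males. The log2 ratio of *Gatm* over *Gamt* was 2.94 in male 5 and 4.24 to 4.62 in the other males. Male 5 also had the lowest sum of proximal convoluted tubule markers (183 FPKM) and the highest sum of injury markers (7180.2 FPKM) of all 10 libraries. Most of that injury sum was *Spp1* (7007 FPKM), and the injury marker *Havcr1* was highest in male 4. The part of either in these values was not tested.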

How the results depend on the processing

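Over all genes 424 were called, 231 with the replicate block, 508 with limma-voom and 266 to 550 with 1 library left out. Both thresholds together called 232, 137 with a pseudocount of 1 and 176 to 262 with 1 library left out. Members called stayed at 0 under all 12 alternatives other than leaving out a library, and were 0 to 2 when 1 was left out. Of these alternatives, median-ratio scaling only repeats the main fit, since the median ratio of every library was already 1.01. Pathway genes called, 2 in all, were 1 with no filter and with scaling to nuclear reads, 0 with quantile normalization and with the replicate block, and 0 to 2 with 1 library left out. *Azin2* also lost its call with quantile normalization (adjusted p = 0.0936) and the block (0.0848), and *Ckmt1* with quantile normalization (0.0659), scaling to nuclear reads (0.0600) and in 5 of 10 fits without 1 library (limma). The replicate numbers are only numbers: deviations of same-numbered males and females correlated at -0.0975 to 0.0708, and male 3 alone correlated best with the female of its own number.

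The estimate of *Srm* turned to 0.29 when summed with *LOC100912604*, *Ddah1* to -0.06 (quantile) and -0.02 (voom), *Mat2a* to -0.04 in both, and *Eif5a* to -0.02 (voom). With 1 library left out, the log2 difference ran from -0.17 to 0.04 for *Ass1*, -0.25 to 0.03 for *Asl*, -0.65 to -0.26 for *Srm*, -0.05 to 0.11 for *Ddah1*, -0.06 to 0.16 for *Mat2a*, -0.13 to 0.22 for *Oaz1* and -0.01 to 0.22 for *Slc3a1*, and the difference in mean FPKM from -63.3 to 17.2 for *Ass1* and -14.5 to 2.33 for *Asl*. Without female 2 the exact permutation test gave p = 0.0159 for *Oat* and 0.0476 for *Gatm*. The cause was not tested. With 5 rats per sex, the members' intervals were on the median wider than the 0.75 log2 units of all genes, which limits the differences that could be detected.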
